A study of Mus musculus with 6 samples.

Results

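The genes described here are the 5 NF-kB subunit genes of the mouse (Nfkb1, Nfkb2, Rel, Rela and Relb) and 5 genes that restrain or modulate NF-kB (Nfkbia, Nfkbib, Nfkbie, Tnfaip3 and Bcl3). They were chosen by name, with earlier results of these data known, as 10 of the 55487 genes in the deposited count tables. All 10 symbols matched an Ensembl identifier. RNA sequencing was done on untreated primary hepatocytes kept in culture, with 3 libraries from WT mice and 3 from Alb/MDA-9 mice. Alb/MDA-9 mice are heterozygous for a transgene that places the human scaffold gene MDA-9/SDCBP, whose product is tagged with HA at its C terminus, under an albumin enhancer and core promoter, which act in hepatocytes; their libraries are called transgenic below. WT animals were littermates without the transgene, and all mice had a B6CBAF1 background and regular chow. The labels do not give ages or sexes. They number the libraries 1 to 3 in each group without naming separate animals or cultures, so every p-value here reflects only the variation among these libraries, which may be technical.

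NF-kB proteins work as pairs. Rela, Rel and Relb carry a transactivation domain, and Nfkb1 and Nfkb2 encode the precursors p105 and p100, which are processed to p50 and p52. Inhibitors of the IkB family, encoded by Nfkbia, Nfkbib and Nfkbie, hold the pairs in the cytoplasm until the IkB kinases mark them for destruction. NF-kB switches on several genes that encode its own subunits and inhibitors. Their mRNA levels are therefore often read as a trace of the pathway's activity. In the liver the pathway is known for protecting hepatocytes from death induced by TNF and for the acute phase response.

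Matches to the kappa B consensus, the sequence that NF-kB pairs bind, are shown first because they mark which members hold a candidate site for feedback beside their start. The consensus searched was GGGRNNYYCC, where R is A or G, Y is C or T and N is any base. Windows from 250 bases before to 50 bases after the start site (RefSeq, GRCm38.p6) were searched on both strands, with overlapping matches merged, and windows were found for 8 members, all but Nfkb1 and Relb. A match lay in a window of 6 of these 8 genes (75.0%), namely Bcl3, Nfkb2, Nfkbia, Nfkbie, Rel and Tnfaip3, and none in those of Rela and Nfkbib. Of all 27025 genes with a window, 9.55% held a match, and of all 32851 windows 8.46%. As NF-kB is known to switch on several of the members, their share describes them and is not a test. Each sequence below reads 5′ to 3′ on the strand of its gene, with the matched bases in capitals. A match is a description of letters and does not show binding. The starts are those of RefSeq, while the gene spans given further below come from GENCODE. The stretches shown for Tnfaip3, Nfkb2 and Bcl3 lie inside those spans, that of Nfkb2 within annotated exon.
Nfkbia, the 130 bases before its start, chr12:55492648-55492777, minus strand: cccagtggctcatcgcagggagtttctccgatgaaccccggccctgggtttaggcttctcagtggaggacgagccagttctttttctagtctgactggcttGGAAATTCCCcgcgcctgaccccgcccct
Tnfaip3, the 130 bases before the upstream of 2 start sites, chr10:19015411-19015540, minus strand: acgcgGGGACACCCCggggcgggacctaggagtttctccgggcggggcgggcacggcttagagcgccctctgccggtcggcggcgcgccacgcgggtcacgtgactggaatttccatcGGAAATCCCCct
Nfkbie, the 130 bases before its start, chr17:45555570-45555699, plus strand: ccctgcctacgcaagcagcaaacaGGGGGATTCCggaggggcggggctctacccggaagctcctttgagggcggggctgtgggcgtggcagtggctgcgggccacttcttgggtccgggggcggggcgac
Rel, 29 bases around its match, chr11:23771042-23771070, minus strand: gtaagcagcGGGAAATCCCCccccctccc
Nfkb2, 29 bases around a match before the first of 3 start sites, chr19:46304689-46304717, plus strand: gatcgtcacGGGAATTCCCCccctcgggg
Bcl3, 30 bases around its match just after the start, chr7:19822734-19822763, minus strand: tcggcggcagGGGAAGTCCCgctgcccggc

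Of the 10 members 6 were higher in Alb/MDA-9 and 0 were lower, where 7.35% of all 13296 tested genes were higher and 7.09% were lower (quasi-likelihood test of edgeR, p adjusted over all genes by Benjamini-Hochberg, threshold 0.05). The members were chosen with earlier results of these data known, so these shares describe them and do not test them as a set. Nfkb1, Nfkb2 and Relb rose among the subunits, and Tnfaip3, Nfkbie and Bcl3 among the restraining or modulating genes. Rela, Rel, Nfkbia and Nfkbib did not pass the test. All 10 members passed the filter on low counts, with at least 186 reads each in every library, so that none was tested only because 1 group was high. The median log2 change of the 10 was 0.48 beside -0.00 over all tested genes. For all 10 members each Alb/MDA-9 library lay above every WT library on the scale of CPM (reads scaled to library size, with TMM correcting for composition), as it did for 17.1% of tested genes, while 33.6% did not overlap in either direction. With library totals in place of TMM the libraries overlapped for Rela, Nfkbia and Nfkbib, which left 7 of 10 members (8.68% of all tested genes) higher without overlap. With upper-quartile factors they overlapped for Nfkbia, which left 9 of 10 (13.4% of all tested genes). Library totals also moved the median log2 change of all genes to -0.11. Relative to zero, all 10 changes stayed positive under every scaling, and the same 6 genes were called.

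**Figure D1:**
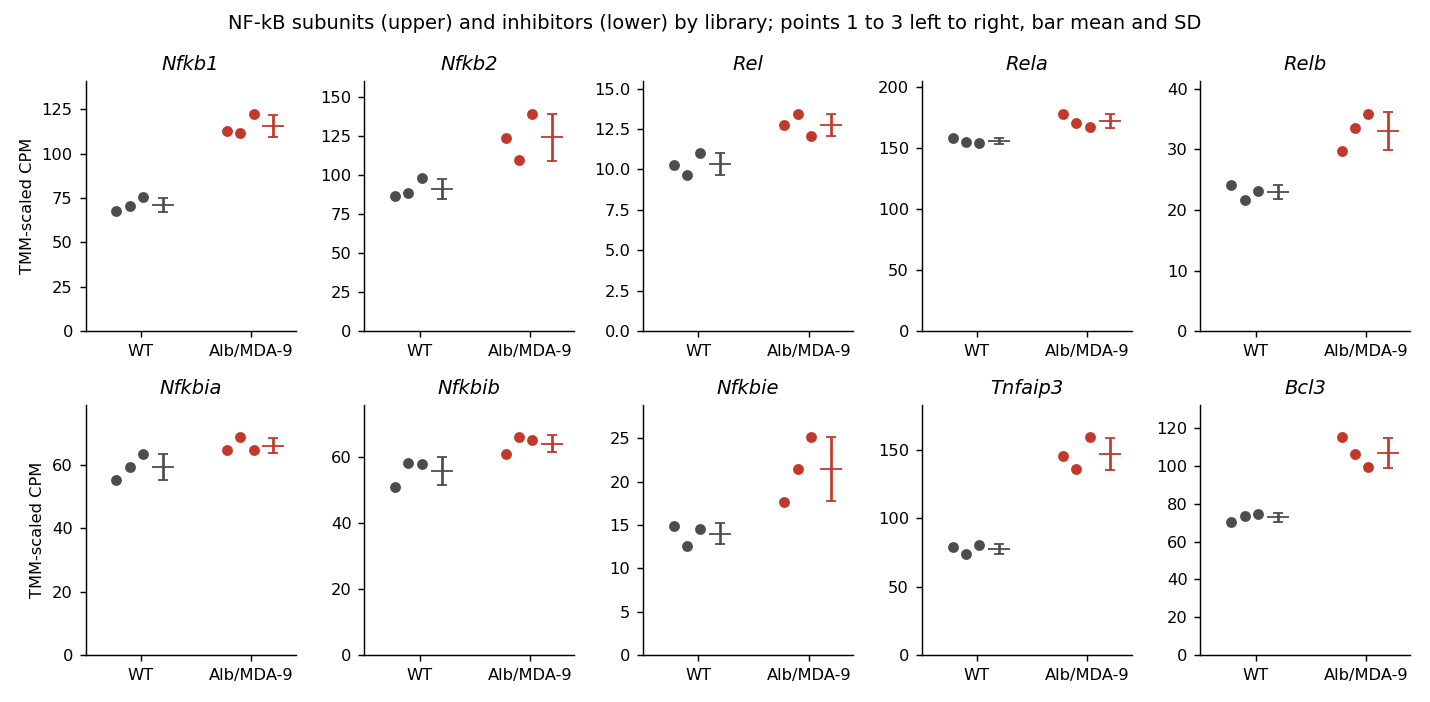
TMM-scaled CPM (vertical axis, from 0) of each gene in the 3 WT and 3 Alb/MDA-9 libraries, as points in the order 1 to 3, with the mean and SD beside them. The Alb/MDA-9 points of all 10 genes lie above the WT points, relative to their level by the widest margin for Tnfaip3 (73.7 to 80.8 against 136 to 159) and by the narrowest for Nfkbia (55.4 to 63.6 against 64.8 to 68.8).

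Among the subunits Nfkb1 rose most. Nfkb1 (ENSMUSG00000028163, chromosome 3, 135584655 to 135691547 on GRCm38, minus strand), the source of p105 and p50, had CPM values of 67.5, 70.5 and 75.4 (WT) and 113, 111 and 123 (transgenic). The lowest Alb/MDA-9 library thus stood well above the highest WT library. The WT mean was 71.2 ± 4.01 and the transgenic mean 116 ± 6.05 CPM (SD, n = 3), and the fitted log2 change was 0.70 (SE 0.07, adjusted p = 6.47e-05 by edgeR).

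Nfkb2 (ENSMUSG00000025225, chromosome 19, 46304320 to 46312385, plus strand), the source of p100 and p52 in the noncanonical branch of the pathway, had CPM values of 86.6, 88.6 and 98.4 (WT) and 123, 109 and 139 (transgenic). The groups did not overlap, but the Alb/MDA-9 libraries were spread more widely than those of WT. The means were 91.2 ± 6.29 and 124 ± 14.9 CPM (SD, n = 3; log2 change 0.44, SE 0.09, adjusted p = 0.00651 by edgeR). Relb (ENSMUSG00000002983, chromosome 7, 19606217 to 19629438, minus strand), the usual partner of p52, had CPM values of 24.1, 21.7 and 23.1 (WT) and 29.7, 33.5 and 35.9 (transgenic). Every Alb/MDA-9 library exceeded every WT library, with a log2 change of 0.52 (SE 0.10, adjusted p = 0.00354 by edgeR). Both genes of the noncanonical pair were therefore called higher.

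Rela (ENSMUSG00000024927, chromosome 19, 5637483 to 5648130, plus strand), which encodes p65, the main transactivating subunit, had CPM values of 159, 155 and 154 (WT) and 178, 170.2 and 167 (transgenic). The groups were apart by a few CPM, and the log2 change of 0.14 (SE 0.07, adjusted p = 0.182 by edgeR) had a 95% interval from -0.00 to 0.28. Rel (ENSMUSG00000020275, chromosome 11, 23736847 to 23770970, minus strand), which encodes c-Rel, a subunit best known from lymphocytes, was the member with the fewest reads, 186 to 204 in WT and 200 to 231 in Alb/MDA-9. It had CPM values of 10.3, 9.64 and 11.01 (WT) and 12.8, 13.5 and 12.04 (transgenic). Its log2 change was 0.31 (SE 0.13, adjusted p = 0.128 by edgeR), with a 95% interval from 0.04 to 0.58, so that a change as large as that of Nfkb2 lies within it.

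The balance between subunits was read from ratios of their levels. On reads per kilobase of all annotated exons, Nfkb1 to Rela was 0.108, 0.116 and 0.125 (WT) and 0.161, 0.167 and 0.187 (transgenic). The ratio of Relb to Rela was 0.120, 0.111 and 0.119 (WT) and 0.132, 0.156 and 0.1696 (transgenic). For both ratios the groups did not overlap, which restates the larger changes of Nfkb1 and Relb. Nfkb2 to Nfkb1 went the other way, at 3.38, 3.31 and 3.43 (WT) and 2.88, 2.58 and 2.99 (transgenic), also without overlap. The ratio of Nfkbia to Rela overlapped between the groups, at 0.729 ± 0.0609 and 0.735 ± 0.0392 (SD, n = 3). Ratios are given as descriptions without a test, and their absolute size depends on the gene lengths used.

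Tnfaip3 changed most of all members. Tnfaip3 (ENSMUSG00000019850, chromosome 10, 19000910 to 19015657, minus strand) encodes A20, a ubiquitin-editing enzyme that ends signalling from the TNF receptor and Toll-like receptors. It had CPM values of 78.9, 73.7 and 80.8 (WT) and 146, 136 and 159 (transgenic), and its transgenic mean was 1.89 times that of WT. The groups were separated by many times the spread within WT, with a log2 change of 0.92 (SE 0.08, adjusted p = 1.24e-05 by edgeR).

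Bcl3 (ENSMUSG00000053175, chromosome 7, 19808462 to 19822770, minus strand) encodes an atypical IkB protein that works in the nucleus with p50 and p52 pairs. It had CPM values of 70.4, 73.6 and 74.7 (WT) and 115, 107 and 99.5 (transgenic). No library overlapped between the groups (log2 change 0.55, SE 0.08, adjusted p = 0.000423 by edgeR). Nfkbie (ENSMUSG00000023947, chromosome 17, 45555703 to 45563169, plus strand), which encodes IkB-epsilon, had CPM values of 14.8, 12.6 and 14.5 (WT) and 17.7, 21.5 and 25.1 (transgenic). The Alb/MDA-9 libraries were more dispersed, from 320 to 417 reads, and the log2 change was 0.61 (SE 0.14, adjusted p = 0.00989 by edgeR). This call ended without WT 2 (log2 change 0.54, adjusted p = 0.0594 by edgeR), the WT library with the lowest Nfkbie level.

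The 2 main cytoplasmic inhibitors did not pass. Nfkbia (ENSMUSG00000021025, chromosome 12, 55489410 to 55492647, minus strand), which encodes IkB-alpha, the fast feedback inhibitor, had CPM values of 55.4, 59.3 and 63.6 (WT) and 64.8, 68.8 and 64.9 (transgenic). The highest WT and the lowest Alb/MDA-9 library nearly met, and the log2 change was 0.15 (SE 0.08, adjusted p = 0.206 by edgeR; 95% interval -0.01 to 0.32). Nfkbib (ENSMUSG00000030595, chromosome 7, 28758251 to 28767512, minus strand), which encodes IkB-beta, had CPM values of 50.7, 58.2 and 57.9 (WT) and 60.9, 65.9 and 65.03 (transgenic). Its log2 change was 0.20 (SE 0.08, adjusted p = 0.114 by edgeR; 95% interval 0.03 to 0.37). The upper ends of both intervals lie below the whole interval of Tnfaip3, 0.75 to 1.09, although no test of a difference between genes was made. Set beside the promoter matches, members with a match include both called genes (Tnfaip3, Bcl3, Nfkbie and Nfkb2) and genes that did not pass (Nfkbia and Rel). The 2 members searched without a match, Rela and Nfkbib, did not pass. The called genes Nfkb1 and Relb had no window, and a link between match and call was not tested.

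**Figure D2:**
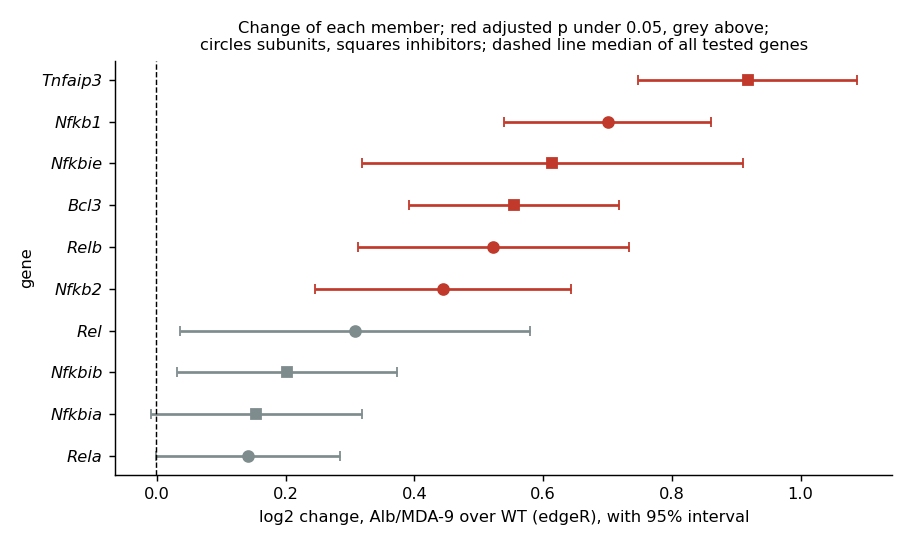
Log2 change of each member, Alb/MDA-9 over WT (horizontal axis), from the edgeR fit with its 95% interval. Red marks an adjusted p under 0.05 and grey one above it. Circles are subunits and squares the genes that restrain or modulate NF-kB. The 6 called genes run from 0.44 (Nfkb2) to 0.92 (Tnfaip3), and the 4 others from 0.14 (Rela) to 0.31 (Rel); the dashed line is the median of all tested genes.

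Levels of different genes can be set side by side only per length of transcript. Per kilobase of all annotated exons in WT, Rela stood highest at 50.7 ± 0.789 (CPM per kilobase, SD, n = 3), followed by Nfkbia at 36.9 ± 2.54, Bcl3 at 29.5 ± 0.913, Nfkbib at 25.6 ± 1.95 and Nfkb2 at 19.9 ± 1.37. Lower came Tnfaip3 at 10.8 ± 0.508, Relb at 5.91 ± 0.311, Nfkb1 at 5.90 ± 0.332, Nfkbie at 4.59 ± 0.395 and Rel at 1.38 ± 0.0916. Relb and Nfkb1 did not differ beyond their spread on this scale. The order depends on the length used, most of all for Nfkb1. Over its longest principal transcript, a length chosen after seeing the data, it stood at 17.3 ± 0.973, level with Tnfaip3 at 17.6 ± 0.830 and above Relb at 10.4 ± 0.547. Over principal transcripts Bcl3 (39.4 ± 1.22) also came before Nfkbia (37.7 ± 2.59), and Nfkb2 (29.04 ± 2.004) before Nfkbib (26.99 ± 2.05), though neither pair differed beyond its spread. Rela was highest and Rel lowest with either length, in both genotypes. With the principal length Bcl3 (57.9 ± 4.28) and Rela (63.3 ± 2.08) did not differ beyond their spread in Alb/MDA-9. In the same libraries Bcl3 reached 43.3 ± 3.20 and Nfkbia 41.1 ± 1.42 per kilobase of all exons, which did not differ beyond their spread.

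**Figure D3:**
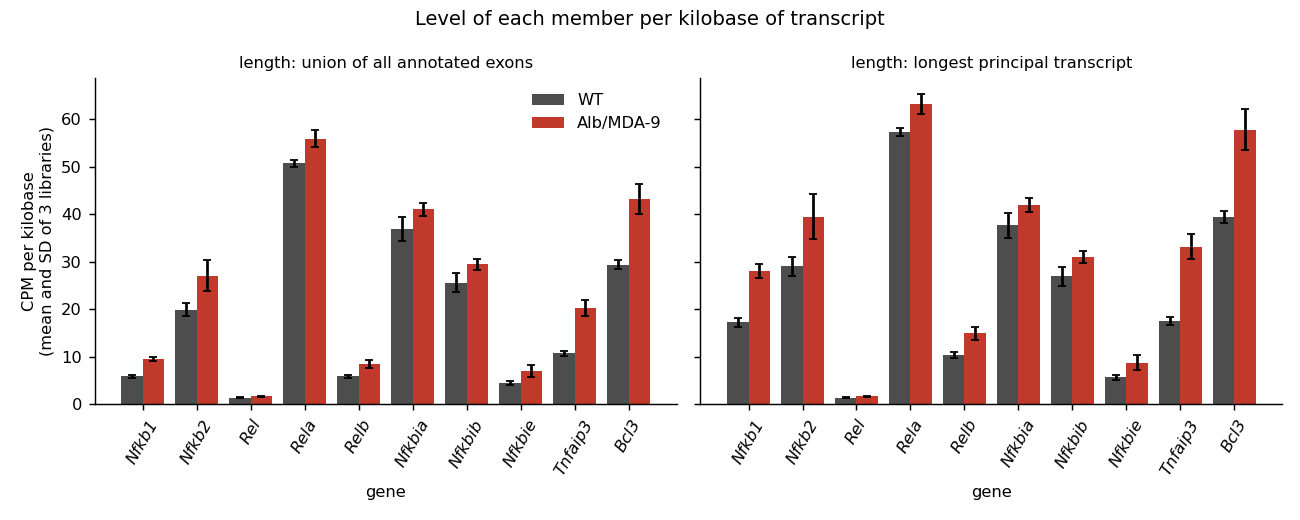
CPM per kilobase (vertical axis, from 0) of each gene in WT and Alb/MDA-9, as bars of the mean with the SD of 3 libraries, with the union of annotated exons as length at left and the longest principal transcript at right. Rela is the tallest bar and Rel the shortest in both panels, while Nfkb1 in WT moves from 5.90 to 17.3.

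The rest of the pathway was read from lists of 94 other genes, of which 76 could be tested. These lists too were drawn up with earlier results of these data known. Of these, 16 were higher and 4 lower in Alb/MDA-9, with a median log2 change of 0.05. Counts in each list are to be read beside the 7.35% of all tested genes that were higher and the 7.09% that were lower, a background from which counts of 1 or 2 among the 13 receptors and the 14 other modulators are not set apart. Ligands were hardly present. Of 9 ligand genes only the cytokine gene Il18 was tested, at means of 3.26 ± 1.43 (WT) and 3.27 ± 2.07 CPM (transgenic; SD, n = 3). Tnf, the classic activating cytokine, had 0.189 ± 0.150 and 0.0747 ± 0.0841 CPM, and Il1b 0.0876 ± 0.0246 and 0.0184 ± 0.0319 CPM. These means lay near or below the level of 3 reads (0.151 to 0.181 CPM by library), though Tnf reached 0.353 CPM in WT 1. Il1a, also untested, had 0.378 ± 0.230 (WT) and 0.0747 ± 0.0841 CPM (transgenic). Lta and Ltb went the other way, with means of 0.0536 and 0 (WT) and 0.0753 and 0.0803 CPM (transgenic).

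Of 13 tested receptor genes 2 rose and 1 fell. Cd40, a TNF-family receptor that feeds the noncanonical branch, had CPM values of 2.27, 2.41 and 1.83 (WT) and 3.15, 4.83 and 5.36 (transgenic) (log2 change 1.02, SE 0.26, adjusted p = 0.0195 by edgeR). Il1r1, the interleukin 1 receptor, fell from 65.2 ± 5.18 to 50.4 ± 6.83 CPM (adjusted p = 0.0254 by edgeR), and the Toll-like receptor gene Tlr2 rose from 7.37 ± 0.815 to 10.4 ± 1.17 CPM (adjusted p = 0.0452 by edgeR). Cd40 was not tested with a minimum count of 100. None of these 3 calls is firm. That of Cd40 ended without any 1 of WT 1, WT 2, WT 3 and Alb/MDA-9 2, that of Il1r1 without WT 1, WT 2, Alb/MDA-9 1 or Alb/MDA-9 2, and that of Tlr2 without any library but Alb/MDA-9 1, and also with library totals, upper-quartile factors, a minimum count of 100 or the replicate block. The TNF receptor genes Tnfrsf1a and Tnfrsf1b, at 98.2 ± 7.06 and 33.9 ± 2.72 CPM in WT, did not pass.

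Of 28 tested adaptor and kinase genes 5 rose and 0 fell (median log2 change 0.06). Birc3, a ubiquitin ligase of the TNF receptor complex, had CPM values of 39.7, 42.96 and 41.95 (WT) and 56.2, 60.04 and 59.8 (transgenic) (log2 change 0.50, SE 0.07, adjusted p = 0.00076 by edgeR). Ikbke, an IkB kinase-related kinase, rose from 73.5 ± 11.4 to 118 ± 17.7 CPM. The TNF receptor adaptor genes Tradd and Ripk1 rose by log2 0.44 (SE 0.09) and 0.36 (SE 0.07). Myd88, the adaptor of Toll-like and interleukin 1 receptors, rose by log2 0.36 (SE 0.10, adjusted p = 0.0313 by edgeR), which was lost with library totals or upper-quartile factors and without WT 1, WT 2, Alb/MDA-9 2 or Alb/MDA-9 3. The genes of the IkB kinase complex itself, Chuk, Ikbkb and Ikbkg, did not pass, with log2 changes of -0.17, 0.17 and -0.15, nor did Map3k14, the kinase of the noncanonical branch, at -0.14.

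Of 14 tested genes of other inhibitors and modulators 2 rose and 1 fell. Nfkbiz, which like Bcl3 encodes an atypical nuclear IkB protein, had CPM values of 45.6, 38.8 and 40.0 (WT) and 62.3, 60.97 and 66.1 (transgenic) (log2 change 0.61, SE 0.08, adjusted p = 0.000424 by edgeR). The groups did not overlap. The kappa B-Ras genes Nkiras1 and Nkiras2, whose products bind IkB proteins, differed in direction: Nkiras2 rose by log2 0.43 (SE 0.09), and Nkiras1 fell, with a log2 change of -0.46 (SE 0.12, adjusted p = 0.0229 by edgeR), which was lost on omitting WT 2, WT 3 or Alb/MDA-9 2. The partners of A20 and the other deubiquitinases, Tnip1, Tax1bp1, Itch, Rnf11, Cyld and Otulin, did not pass, with log2 changes from -0.23 (Otulin) to 0.18 (Cyld).

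Of 20 tested target genes 7 rose and 2 fell (median log2 change 0.16). The monocyte chemokine gene Ccl2 had CPM values of 121, 120.0 and 122 (WT) and 278, 269.9 and 305 (transgenic) (log2 change 1.23, SE 0.07, adjusted p = 3.33e-07 by edgeR). Cxcl10, another chemokine gene, rose by log2 1.60 (SE 0.20), the adhesion molecule gene Icam1 by 0.52 (SE 0.09) and the interferon regulator gene Irf1 by 0.40 (SE 0.09). Ccl5, Cxcl1 and Sod2, named after their values were seen, rose too, with adjusted p = 0.0379, 0.0449 and 0.0397 by edgeR, but Ccl5 was lost on omitting WT 2, WT 3, Alb/MDA-9 1 or Alb/MDA-9 2, Cxcl1 on omitting any library but Alb/MDA-9 2, and Sod2 on omitting any but Alb/MDA-9 1. Cxcl1 and Sod2 were also lost with library totals, upper-quartile factors or a minimum count of 100, and Sod2 with the replicate block. Ccl5 was not tested with that minimum count. The stress gene Gadd45b fell from 18.1 ± 3.08 to 11.3 ± 1.42 CPM and the macrophage growth factor gene Csf1 from 31.99 ± 3.39 to 20.6 ± 4.66 CPM (SD, n = 3). The count of 7 was 3 without WT 2, 4 without WT 3 or Alb/MDA-9 2 and 4 with a minimum count of 100, and the calls of Irf1, Gadd45b and Csf1 ended without WT 2 or Alb/MDA-9 2, and that of Csf1 also without WT 1. Of 17 target genes with a promoter window 12 (70.59%) held a match to the kappa B consensus, beside 9.55% of all genes. A match was held by 6 of 12 other inhibitors and modulators, 3 of 11 receptors, 1 of 8 ligands and 3 of 25 adaptors and kinases. Target genes were listed because textbooks name them as such, but with earlier results of these data known. Their share with a match therefore describes the list and is not a test.

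**Figure D4:**
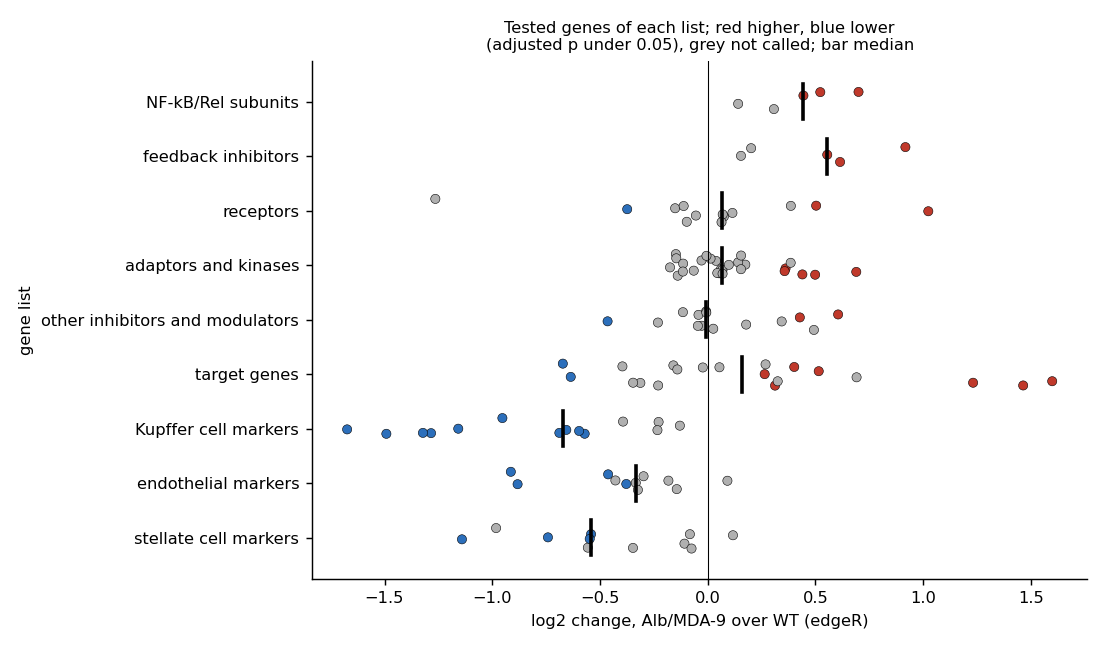
Log2 change, Alb/MDA-9 over WT (horizontal axis), of every tested gene in 9 lists, red where called higher, blue where called lower and grey otherwise, with a bar at each list's median; points are spread vertically at random. Subunits and feedback inhibitors (a label that here includes the modulator Bcl3) have all points right of 0 (medians 0.44 and 0.55). Receptors and adaptors centre near 0, and the markers of Kupffer, endothelial and stellate cells centre left of it (medians -0.67, -0.33 and -0.54).

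The genes whose pattern over the 6 libraries was most like the members' were sought among 9524 tested genes with a mean of at least 5 CPM, by the root mean square difference of centred log2 CPM. Closest to the mean of the 5 subunits were Aldh3a2, a fatty aldehyde dehydrogenase gene (difference 0.02 log2 units), Tapbp, the gene of the MHC class I chaperone tapasin (0.03), Rai14 (0.03) and Igsf8 (0.03). Closest to the mean of the 5 restraining or modulating genes were Plpp3, a lipid phosphate phosphatase gene (0.02), and Rai14 (0.03). Next came Cyp51, an enzyme gene of cholesterol synthesis (0.03), and Igsf8 (0.03). These points share libraries and scaling, and likeness over 6 libraries in 2 groups mainly means a like difference between the groups.

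Reads in genes were 16403918 to 19046739 per library. The first principal component (55.5% of variance) separated WT from Alb/MDA-9, and the library Alb/MDA-9 3 was far from the rest on the second (16.98%); without that library the same 6 members were called. The mouse gene Sdcbp, counterpart of the human transgene, had 172 ± 6.94 and 175 ± 5.66 CPM (SD, n = 3) and does not check the genotype labels. The 10 hepatocyte markers were all tested, and 2 rose and 1 fell. They summed to 83617 to 86580 CPM in WT and 88495 to 103624 CPM in Alb/MDA-9. NF-kB genes are also expressed by other liver cells. The called markers of Kupffer, endothelial and stellate cells all fell, while those of cholangiocytes moved both ways. These counts are to be read beside the 7.35% of all tested genes that were higher and the 7.09% that were lower. Of 14 Kupffer cell markers 10 fell and 0 rose (sums 483 to 504 CPM in WT and 299 to 440.3 in Alb/MDA-9), of 11 endothelial markers 4 fell and 0 rose (269 to 289 and 205 to 223), and of 11 stellate cell markers 4 fell and 0 rose (297 to 318 and 209.95 to 275). None of 8 lymphocyte markers could be tested, and Cd3d, Ms4a1 and Nkg7 were among those at 0 in all libraries, as were the neutrophil markers Retnlg and Ly6g and the cholangiocyte marker Cftr. Of 5 cholangiocyte markers 2 rose (Sox9 and Krt19) and 1 fell (Krt7), with sums of 51.4 to 60.1 CPM in WT and 80.01 to 83.6 in Alb/MDA-9. The part of these cells in the members' changes was not tested, and in bulk samples fewer cells of a type and less RNA per cell cannot be told apart.

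**Figure D5:**
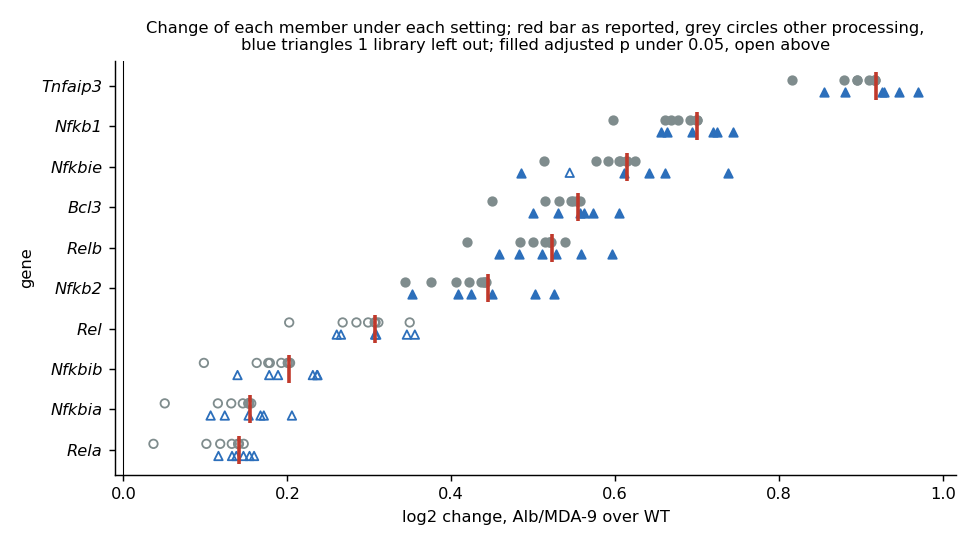
Log2 change of each member (horizontal axis) as reported (red bar), under 8 other ways of processing (grey circles) and with 1 library left out (blue triangles), filled where the adjusted p was under 0.05. All points lie right of 0, and among the 6 called genes only Nfkbie has an open point, that without WT 2.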

How the data were processed

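The authors deposited STAR read counts per gene for each library, not normalised. Per the submitters' processing notes, STAR 2.7.9a was used with edgeR 3.18.1, FastQC 0.11.2, Trim Galore 0.6.6 and the builds mm10 and GRCm38; the annotation release is not given in the sources used here. The count column of the strand that held 96.9% to 97.2% of stranded reads (column 4) was used, without STAR's 4 summary rows (unmapped reads were 9.22% to 10.4% of all). Reads that map to several places are not in these counts; no member has a near-identical copy (95% identity over 200 bases, minimap2 2.31-r1302). GENCODE M21 on GRCm38 held 55227 of the 55487 identifiers.

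Genes were filtered with filterByExpr (minimum count 10) and tested with edgeR 4.0.16 (R 4.3.3) without covariates, with 4 residual degrees of freedom; the SE is the log2 change divided by the root of F. Alternatives were DESeq2 1.42.0, limma 3.58.1, other scalings, filters and columns, the replicate block and leaving out each library. All members were named, with up to 6 called genes of each other list by adjusted p and the 4 genes most like each group; called genes beyond 6 and list genes that did not pass were named after their values were seen. The members and lists were chosen with earlier results of these data known. Replicate libraries of 1 group differed by more than sampling noise. Limits at 3 reads cover counting error only.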

Additional observations from a re-analysis of the deposited data

How the results depend on the processing

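The count of 6 members higher and 0 lower was found with DESeq2, library totals, upper-quartile factors, no low-count filter, a minimum count of 100, reads of either strand, limma voom with quality weights and the replicate block, and it ranged from 5 to 6 (0 lower throughout) when 1 library was left out. The calls were of the same 6 genes, less Nfkbie without WT 2. Over all genes 1920 were called, 1018 to 2386 with 1 library left out (1168 on omitting WT 1, 1018 on omitting WT 2, 1131 on omitting Alb/MDA-9 2), 1601 with the replicate block and 2596 with limma voom. Library totals gave 525 higher and 1622 lower and upper-quartile factors 722 and 1087, against 977 and 943. Receptors that rose numbered 1 with the replicate block, with library totals and with upper-quartile factors, 0 with a minimum count of 100 and 0 to 2 with 1 library left out; those that fell numbered 0 to 1. With a minimum count of 100 the receptor gene Cd40 and the target gene Ccl5 were not tested. With library totals 3 adaptors and 2 other modulators fell. Other modulators that fell numbered 0 to 1, target genes that rose 3 to 6 and target genes that fell 0 to 3 with 1 library left out, and 4 target genes rose with a minimum count of 100. The cause was not tested.

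The labels give both groups the numbers 1 to 3, but the deviations of same-numbered libraries from their group means were not correlated (-0.04, -0.00009 and -0.06). This check over all genes, with few libraries, cannot tell whether same-numbered libraries were prepared together. With the replicate block 6 members were higher and 0 lower, and no WT library correlated best with its own number.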

Other observations

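Reads on the strand opposite to the members' exons were rare, at 0 to 43 reads per gene summed over the 3 libraries of a group. Nfkb2 had the most, 39 reads in WT and 43 in Alb/MDA-9, or 0.706% of the reads on both strands. The gene AC114539.1, which shares 531 exon bases with Nfkb2 on the other strand, had means of 4.02 (WT) and 3.74 CPM (transgenic). Nfkbib shares 42 exon bases with Sirt2, which stood at 99.9 and 116 CPM.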
